A study of Saccharomyces cerevisiae with 16 samples.

Results

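Of the 7126 rows in the deposited expression tables, 46 carried a failed estimate in at least 1 of the 16 libraries. All 46 encode proteins of the Ty1 retrotransposon of *S. cerevisiae*. They are the gag row and the gag-pol row of 23 elements, out of 31 Ty1 elements and 50 Ty elements of any family in the annotation. The rows were chosen by the status that Cufflinks wrote beside each FPKM (a fragment count divided by transcript length and by the library's mapped fragments). In these rows the status was HIDATA, which Cufflinks gives to a locus with more fragments than it will process, and the FPKM was then not used. The libraries come from RNA depleted of rRNA, from BY4741 wild-type (WT) cells and from cells of the same background that lack *LSM1* (*lsm1∆*). Each strain was sampled untreated in YPD medium and after 1, 2 and 4 h in YPD with 200 mM hydroxyurea (HU), an inhibitor of ribonucleotide reductase that slows DNA replication, with 2 libraries per condition. The replicates are called technical in the study's methods, so p-values here measure only the spread between these libraries.

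Ty1 is an LTR retrotransposon, an element that moves through an RNA copy of itself. Its full-length RNA serves both as the genome packaged into virus-like particles and as the mRNA for Gag, the particle's coat protein, and Gag-Pol, the precursor of protease, integrase and reverse transcriptase. Gag-Pol is made when the ribosome slips forward by a base near the end of *gag*, so the gag row lies inside the gag-pol row of the same element and both count the same RNA. Lsm1 is a subunit of the cytoplasmic Lsm1-7 complex, which with Pat1 promotes removal of the cap from mRNAs and is found in P-bodies, and several factors of this pathway are known in yeast as host genes that Ty1 uses to transpose.

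The copies are nearly the same sequence, and the stretch below shows why a value for a single copy has to be read with care. All 46 rows lie at the positions that the RefSeq annotation of the R64 assembly (the same build as sacCer3) gives them, on 9 chromosomes, with 12 elements on the plus strand and 11 on the minus strand. A run of 50 bases from the gag-pol row YGR027W-B (chrVII:537506-537555, plus strand) occurred at 33 positions in the genome and in all 31 Ty1 elements.
YGR027W-B, shared by every Ty1 element: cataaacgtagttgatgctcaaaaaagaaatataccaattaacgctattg

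Of the 50-base words in the 23 gag-pol rows, a median of 0.785% per row occurred only once in the genome (range 0% to 3.91%). In the 23 gag rows the median was 0%, with a highest value of 9.81%. In the middle gag-pol row the median word had 26 positions in the genome. Between 1.25% and 17.6% of a gag-pol row's words also occurred in an element of another family. Among the 20 gag-pol rows of 5269 bp, pairs were 95.5% to 99.98% identical, with a median of 97.9%, and the closest pair, YLR157C-B and YPL257W-B, differed at 1 base. Among the 22 gag rows of 1323 bp, pairs were 98.0% to 100% identical, and 11 pairs had no difference. Reads of such stretches cannot be assigned to a copy by sequence. Values per copy are therefore uncertain, and sums over copies are given first.

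The frameshift site is shown because it is what ties the gag row to the gag-pol row. The heptamer CTTAGGC, the site of Ty1 frameshifting, was present at the end of *gag* in all 23 gag-pol rows. It was also present in all 6 other Ty1 gag-pol rows with both coding parts, in all 10 Ty2 gag-pol rows and in 2 of 3 Ty4 rows, and it was absent from both Ty3 rows. Around the heptamer, in capitals, the 23 rows held 3 different windows of 30 bases. The first was found in 10 rows, the second in 11 rows and the third in 2 rows, and the Ty2 rows shared a single window.
Ty1, 10 rows, as in YGR027W-B (chrVII:537347-537376, plus strand): cacgaccttcacCTTAGGCcaggaacttac
Ty1, 11 rows, as in YGR161C-D (chrVII:821696-821725, minus strand): cacgaccttcatCTTAGGCcagaaacttac
Ty1, 2 rows, as in YDR098C-B (chrIV:649807-649836, minus strand): cacgaccttcatCTTAGGCcaggaacttac
Ty2, 10 rows, as in YFL002W-A (chrVI:139482-139511, plus strand): aacgaacttagtCTTAGGCcagcaacagaa
In the first WT untreated library, the 10 gag-pol rows with the first window had 333 to 359 FPKM (median 347), the 11 rows with the second had 223 to 358 (median 277), and the 2 rows with the third had 261 and 283. The ranges overlapped. The first window was also carried by 3 Ty1 gag-pol rows that never failed, YBL005W-B, YMR045C and YNL284C-B, at 251, 255 and 238 FPKM in the same library, below all 10 rows given above. The rows were chosen by failure, which goes with the fragments at a locus, so nothing about the window is read from the levels of the rows that failed.

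The first 200 bases of the element, which hold the start of its promoter in the 5′ LTR, are shown for a Ty1 and a Ty2 element. The rows of different elements moved together, but they share most of their sequence and so their reads. The part of the promoter in this was not tested. Capitals mark the matches of the motifs searched on both strands. These were TATAAA (the TATA box), CATTCC and CATTCT (bound by Tec1), TGAAACA (bound by Ste12) and TGACTC (bound by Gcn4), and in the windows printed no match shared bases with a match of another motif.
Ty1 element YGRWTy1-1 (chrVII:535760-535959, plus strand): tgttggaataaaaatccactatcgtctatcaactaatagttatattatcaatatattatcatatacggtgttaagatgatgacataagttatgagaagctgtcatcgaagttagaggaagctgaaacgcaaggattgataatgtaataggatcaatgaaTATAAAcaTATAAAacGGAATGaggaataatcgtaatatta
Ty2 element YFLWTy2-1 (chrVI:137913-138112, plus strand): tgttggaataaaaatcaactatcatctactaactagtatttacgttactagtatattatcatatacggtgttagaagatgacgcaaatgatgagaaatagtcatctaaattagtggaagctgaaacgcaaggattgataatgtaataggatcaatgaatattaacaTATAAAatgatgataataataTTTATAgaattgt
The 23 elements had 9 distinct windows. TATAAA was present in 23 of 23, in 8 of 8 other Ty1 elements and in 12 of 13 Ty2 elements, against 34.7% of the windows of the same length and place upstream of 5916 genes. The Ty2 element without a match, YNLCTy2-1, had a window unlike the start of the others. Whether that window holds LTR sequence was not tested, and it is among the 13 for every motif. CATTCC was present in 15 of 23, in 6 of 8 and in 0 of 13, against 7.015% of gene windows, and TGAAACA in 4 of 23, 4 of 8 and 0 of 13, against 4.682%. CATTCT and TGACTC were found in none of these elements, against 12.81% and 5.815% of gene windows. A match is a stretch of letters and not a shown binding site.

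The failed estimates fell in WT libraries late in HU. In the second WT library at 2 h, 14 rows of 7 elements failed. At 4 h, all 46 rows failed in the first WT library and 42 in the second, where the rows of the elements YGRCTy1-3 and YHRCTy1-1 were estimated. The other 13 libraries, including all 8 of *lsm1∆*, held no failed estimate. For each element the summed FPKM times row length in kb of its gag and gag-pol rows, in proportion to fragments, describes its load. In the first WT library at 2 h, where every row was estimated, the 7 elements that failed in the other 2 h library had loads of 3990 to 4150 (median 4023). The 16 that failed at 4 h alone had 3022 to 4245 (median 3424), and the 8 Ty1 elements that never failed had 1093 to 3498 (median 3058). The 1093 belonged to YLRWTy1-3, whose load is that of a gag row alone, with no gag-pol row. The next lowest was YBRWTy1-2 at 2751. The classes overlapped. YGRWTy1-1 had the highest of these loads, 4245, and was still estimated in the second WT library at 2 h, at 5089. Failure did not follow this load alone, and these values are only a description of the choice. Lsm1 and HU could therefore be compared by test only where the choice was not made, that is untreated, at 1 h, and along the HU course of *lsm1∆*.

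**Figure D1:**
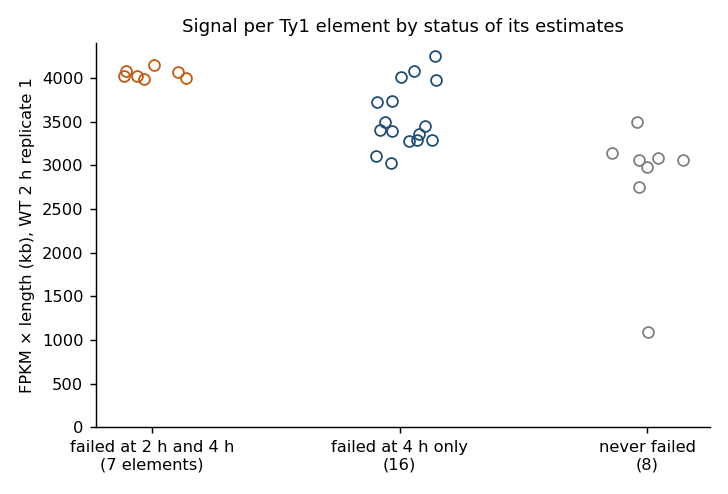
Load of each Ty1 element, as FPKM times length in kb summed over its gag and gag-pol rows, in the first WT library at 2 h, by whether its estimates failed in other WT libraries. Each point is an element. The 7 that failed at 2 h and 4 h sit between 3990 and 4150. The lowest of the 8 that never failed, at 1093, is YLRWTy1-3, which has a gag row alone, and the next lowest is at 2751.

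In the libraries as a whole, *LSM1* had 111 to 181 FPKM in the 8 WT libraries and at most 0.761 in the 8 *lsm1∆* libraries, as the labels state. HUG1, a small protein that restrains ribonucleotide reductase and is induced by replication stress, had 47.0 and 56.4 FPKM in untreated WT and 3277 and 2961 at 1 h, and 95.7 and 81.2 and then 1493 and 1255 in *lsm1∆*. In *lsm1∆* HUG1 thus started higher and stood lower at 1 h, so it rose less there than in WT. Libraries of a pair correlated at 0.953 to 0.964 over log2 values. FPKM tables hold no read counts, so the depth behind a value is unknown and no counting interval is given.

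Ty1 RNA was lower in untreated *lsm1∆* cells than in WT. Summed over the 46 rows, FPKM was 8158 and 8007 in the 2 WT libraries and 3445 and 3276 in the 2 *lsm1∆* libraries. Both *lsm1∆* sums lay far below both WT sums, at 41.6% of the WT mean. The 23 gag-pol rows summed to 7080 ± 43.8 in WT and 2881 ± 68.3 in *lsm1∆* (SD, n = 2 each), or 40.7%. The 23 gag rows summed to 1003 ± 63.0 and 480 ± 51.0 (SD, n = 2 each), or 47.9%. The groups did not overlap for either kind of row. A bulk measurement cannot tell apart fewer cells with much Ty1 RNA from less Ty1 RNA in each cell.

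**Figure D2:**
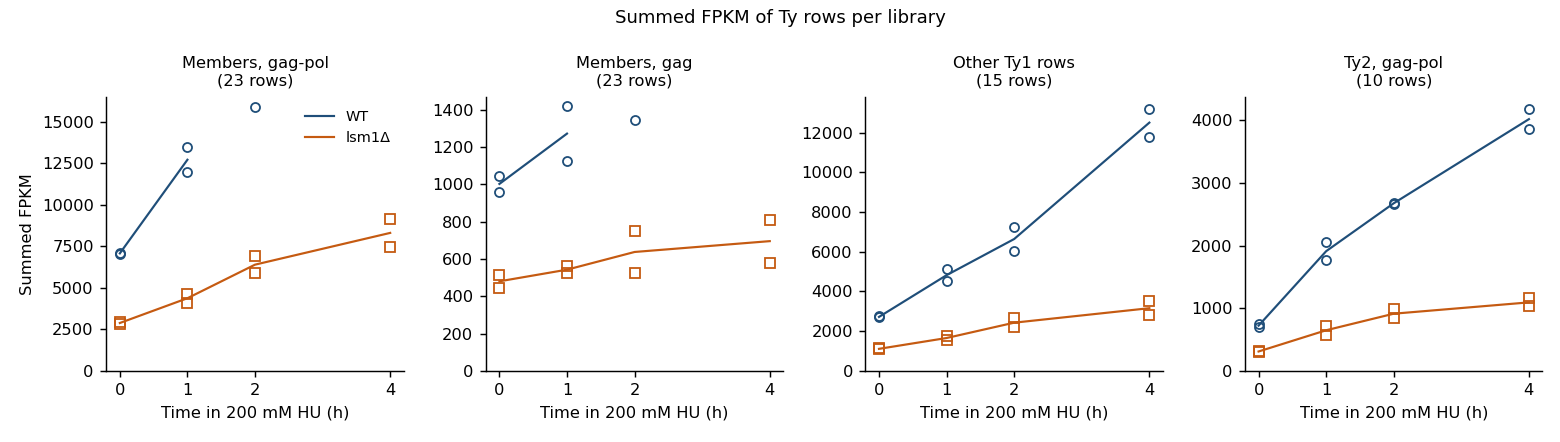
Summed FPKM per library (points) and group means (lines) against hours in 200 mM HU for WT and lsm1∆: gag-pol rows of the 23 elements, their gag rows, the other Ty1 rows and the Ty2 gag-pol rows. WT at 2 h has a single point and WT at 4 h none for the 23 elements, where estimates failed, and in each panel the WT points lie above the lsm1∆ points of the same time.

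All 46 rows reached 1 FPKM in 2 or more libraries, the filter used here, and entered the limma fit of log2(FPKM + 1) with 7023 rows, in which a row is called at a Benjamini-Hochberg adjusted p under 0.05. Of the 46, 39 were called lower in *lsm1∆* untreated and none higher. This compares with 6.86% of all rows called lower. The median log2 ratio of the 46 was -1.27, against 0.13 over all rows. After subtracting each library's own median, the 46 rows had a median of -1.35, and 39 were again called lower.

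All 23 gag-pol rows were called lower, at log2 ratios of -1.35 to -1.26 with adjusted p between 0.000182 and 0.000299, and all 23 were called lower with any of the 4 libraries left out. YGR027W-B, the gag-pol row with the highest level (chrVII:536057-541325, 2 joined coding parts), had 359 and 357 FPKM in WT and 150.4 and 146 in *lsm1∆*. Its log2 ratio was -1.27 ± 0.13 (SE), with an adjusted p of 0.000243 by limma. YDR365W-B (chrIV:1206997-1212265) was close to it, with 358 and 357 in WT, 149.8 and 145 in *lsm1∆* and a log2 ratio of -1.27 ± 0.12 (SE). The lowest ratio among gag-pol rows belonged to YLR227W-B (chrXII:593438-598706), at 346 and 341 in WT and 135.6 and 133 in *lsm1∆*, a log2 ratio of -1.35 ± 0.12 (SE, adjusted p = 0.000182). YPR137C-B (chrXVI:805001-810269) followed at -1.31 ± 0.13 (SE). In each of these rows both *lsm1∆* libraries lay below both WT libraries by a wide gap. Since at most 3.91% of a gag-pol row's 50-base words occurred once in the genome, the ratios of the copies are not independent of each other.

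Every gag row of the 46 lies inside a gag-pol row, and how Cufflinks divided fragments between the 2 is not given in the sources used here. The part of that division in any difference between gag and gag-pol rows was not tested. The gag levels ran from 4.23 to 99.7 FPKM in the first WT library, against 223 to 359 for the gag-pol rows, on a scale that already accounts for length. YAR010C and YLR256W-A, Ty1 gag rows with no gag-pol row over them, had 407 and 401 FPKM in that library. Of the 23, 16 were called lower, with a median log2 ratio of -0.95. That count fell to 6 without the first WT library, to 6 without the second *lsm1∆* library and to 9 without the second WT library. YGR161C-C (chrVII:821693-823015), the highest gag row, had 99.7 and 97.6 FPKM in WT and 45.6 and 41.6 in *lsm1∆*. Its log2 ratio was -1.16 ± 0.17 (SE, adjusted p = 0.00149 by limma). YPR137C-A (chrXVI:808947-810269) had 99.1 and 91.5 against 44.4 and 39.6, a log2 ratio of -1.17 ± 0.21 (SE, adjusted p = 0.00409). In both rows the 2 strains were well separated.

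Rows at the ends of the range of ratios were also gag rows. YJR028W (chrX:478344-479666) had 50.9 and 40.8 FPKM in WT and 19.6 and 15.2 in *lsm1∆*, the lowest log2 ratio at -1.35 ± 0.35 (SE, adjusted p = 0.0192). That call was lost without either WT library or without the second *lsm1∆* library. YML045W-A (chrXIII:184461-185783) had 22.7 and 19.9 against 13.6 and 10.7, a log2 ratio of -0.77 ± 0.31 (SE, adjusted p = 0.0974). YPR158W-A (chrXVI:844709-846031) had a ratio of -0.70 ± 0.51 and YLR227W-A (chrXII:593438-594760) of -0.59 ± 0.43 (SE), and neither was called. Their *lsm1∆* libraries lay below their WT libraries all the same. YLR227W-A and YLR227W-B belong to the same element, whose gag row thus had one of the ratios nearest to 0 and whose gag-pol row the lowest of its kind. YDR261C-C (chrIV:991027-992349), the gag row of a shortened gag-pol, stood apart at 4.23 and 0.417 FPKM in WT and 3.09 and 0.0749 in *lsm1∆*, and at 1 h it had at most 0.0111 in the 4 libraries. It was chosen after its values were seen.

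**Figure D3:**
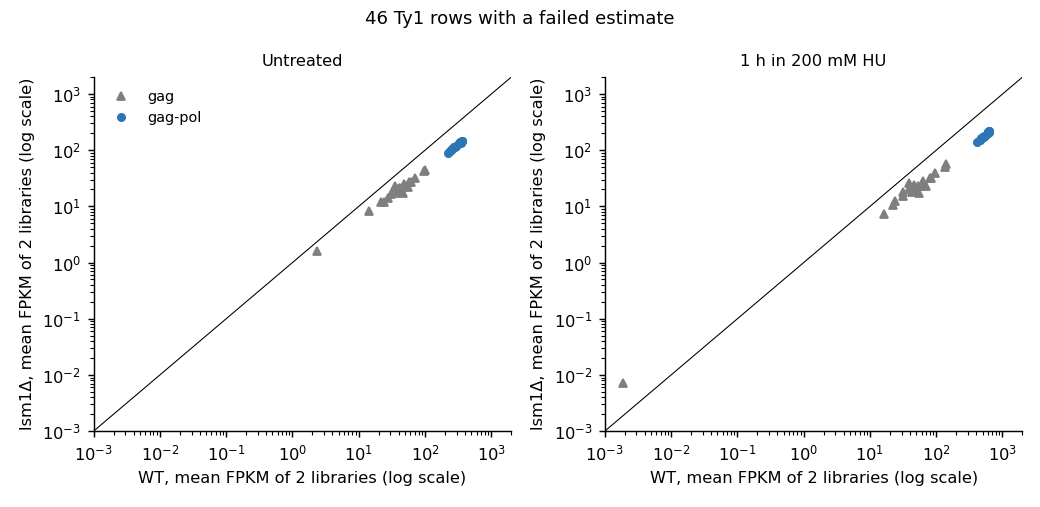
Mean FPKM of each of the 46 rows in WT (x axis) and lsm1∆ (y axis), both on log scales, untreated and at 1 h in HU, with the line of equal level. Gag-pol rows (circles) form a tight cluster below the line and gag rows (triangles) spread below it at lower levels, and the row at the bottom left at 1 h is YDR261C-C.

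After 1 h in HU the strains differed in the same direction. The 46 rows summed to 13082 and 14913 FPKM in WT and to 5207 and 4629 in *lsm1∆*, or 35.1% of the WT mean, with no overlap. Gag-pol rows stood at 34.4% of WT and gag rows at 42.6%. By limma 40 of the 46 rows were called lower (17 gag and all 23 gag-pol) and none higher, with a background of 14.3% of all rows called lower. The median log2 ratio was -1.51, against 0.03 over all rows. The gag-pol rows had log2 ratios of -1.58 to -1.50 with adjusted p between 4.1e-05 and 8.2e-05.

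YGR027W-B had 595 and 674 FPKM in WT and 237 and 210.3 in *lsm1∆* at 1 h, a log2 ratio of -1.50 ± 0.13 (SE, adjusted p = 6.15e-05 by limma). YGR161C-C had 129 and 153.5 against 57.5 and 53.9, a log2 ratio of -1.32 ± 0.17 (SE, adjusted p = 0.000493). In both rows the higher *lsm1∆* value at 1 h was below the lower WT value of untreated cells. YML045W-A again missed the threshold, at -0.89 ± 0.31 (SE, adjusted p = 0.0514).

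Ty1 RNA rose within the first hour of HU in both strains. In WT the sum of the 46 rows at 1 h was 1.73 times that of untreated cells, and in *lsm1∆* it was 1.46 times. Gag-pol rows stood at 1.80 times in WT and 1.52 times in *lsm1∆*, and gag rows at 1.27 and 1.13 times, a difference in which the part of the division of fragments was not tested. These comparisons share the untreated libraries of each strain with the strain comparison above.

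In WT at 1 h, 24 of 46 rows were called higher (all 23 gag-pol rows and the gag row YGR161C-C), beside 36.0% of all rows called higher. The median log2 change of the 46 was 0.66 against 0.22 over all rows, and 0.41 after subtracting each library's own median (centring), where 23 were called. The gag-pol rows changed by 0.81 to 0.91 and the gag rows by a median of 0.26. YGR027W-B changed by 0.82 ± 0.13 (SE, adjusted p = 0.000974 by limma). YGR161C-C changed by 0.51 ± 0.17 (SE, adjusted p = 0.0418), and its call was lost with any of the 4 libraries left out and under centring.

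In *lsm1∆* at 1 h, 23 of 46 rows were called higher, all of them gag-pol, beside 25.2% of all rows. Without the first *lsm1∆* library at 1 h the count was 6. The gag-pol rows changed by 0.57 to 0.67 on the log2 scale and the gag rows by a median of 0.13, against 0.14 over all rows. YGR027W-B changed by 0.59 ± 0.13 (SE, adjusted p = 0.00737 by limma), a call that was lost without the first *lsm1∆* library at 1 h and under centring.

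Whether the change with HU differed between the strains at 1 h was tested as an interaction. By limma none of the 46 rows was called, beside 0.498% of all rows, and none had an unadjusted p under 0.05. The median interaction was -0.23 on the log2 scale against -0.09 over all rows, and the smallest adjusted p among the 46 was 0.495. For YGR027W-B it was -0.23 ± 0.18 (SE, adjusted p = 0.568). A smaller rise in *lsm1∆* was therefore not shown, and the standard error is close to the size of the difference.

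Ty1 RNA went on rising in *lsm1∆* through 4 h. The 46 rows summed to 7646 and 6427 FPKM at 2 h and to 9964 and 8054 at 4 h, or 2.09 and 2.68 times the untreated mean. The first library of each pair was the higher, and the ranges at 2 h and 4 h did not overlap. At 2 h 28 of 46 rows were called higher (23 gag-pol and 5 gag), beside 38.7% of all rows, with a median log2 change of 0.90 against 0.23. At 4 h 31 were called higher (23 gag-pol and 8 gag), beside 43.7% of all rows, with a median of 1.22 against 0.28. Centred on the library medians, the 2 medians of the 46 were 0.63 and 0.91.

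The gag-pol rows changed by 1.10 to 1.25 at 2 h and 1.46 to 1.65 at 4 h on the log2 scale. YGR027W-B had 349.5 and 299.6 FPKM at 2 h and 460.5 and 375 at 4 h. Its log2 change was 1.12 ± 0.13 (SE, adjusted p = 0.000116) at 2 h and 1.48 ± 0.13 (SE, adjusted p = 1.39e-05 by limma) at 4 h. Both values at 4 h lay above both values of untreated WT, a difference that was not tested. YGR161C-C changed by 0.68 ± 0.17 (SE, adjusted p = 0.0104) and 0.82 ± 0.17 (SE, adjusted p = 0.003), and under centring neither change was called.

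The gag calls along this course were few and rested on single libraries. The 5 gag calls at 2 h became 0 without the first *lsm1∆* library at 2 h or the second untreated one, 1 without the first untreated one, and 0 under centring. The 8 gag calls at 4 h became 2, with 1 other gag row then lower, without the first *lsm1∆* library at 4 h, 3 without the second untreated one, 5 without the first untreated one and 1 under centring. YJR028W had 15.3 and 11.2 FPKM in *lsm1∆* at 4 h, against 19.6 and 15.2 untreated, and was not called. Entering the failed estimates as 0 instead of leaving them out, which adds their spread to the residual of those rows, reduced the counts of calls to 22 untreated and 25 at 1 h between strains.

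Levels in WT at 2 h and 4 h are given as a description, since failure in those libraries chose the rows. At 2 h the 32 rows estimated in both WT libraries summed to 11629 and 14142 FPKM, against 5459 and 5355 untreated, or 2.38 times. In *lsm1∆* the same 32 rows summed to 5153 and 4324 at 2 h, 36.8% of WT, beside 41.6% untreated and 35.0% at 1 h. All 46 rows summed to 17226 in the first WT library, the only one with every row estimated. The fitted log2 ratio between strains at 2 h, which rests on 1 WT library for the 14 rows that failed in the other, had a median of -1.41 over the 46. YGR027W-B had 789.8 and 937 FPKM in WT at 2 h.

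At 4 h only the second WT library held values, for 4 rows. The gag-pol rows YGR161C-D and YHR214C-B had 972 and 1116 FPKM there, and the gag rows YGR161C-C and YHR214C-C had 410 and 221. The 4 rows summed to 2719 in that library, 636 and 627 in untreated WT, and 804 and 650 in *lsm1∆* at 4 h. The WT value stood far above all of these, and with a single library it has no replicate check.

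Copies that share an identical gag sequence did not have the same values. Over the 11 identical pairs, made of 11 gag rows, the median ratio of FPKM between members over the 8 untreated and 1 h libraries ran from 1.07 to 2.31, with a middle value of 1.35. The largest belonged to YGR161C-C and YDR316W-A, whose gag rows do not differ at any base. Between these rows, then, FPKM differed by up to about that size without any difference in the gag sequence. Reads of identical stretches cannot be assigned to a copy, so this is not read as a difference in RNA between copies. Among the 20 gag-pol rows of 5269 bp no pair was identical. The part of differences outside *gag* was not tested. The TruSeq libraries did not keep strand, and reads from the opposite strand of an element cannot be separated.

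**Figure D4:**
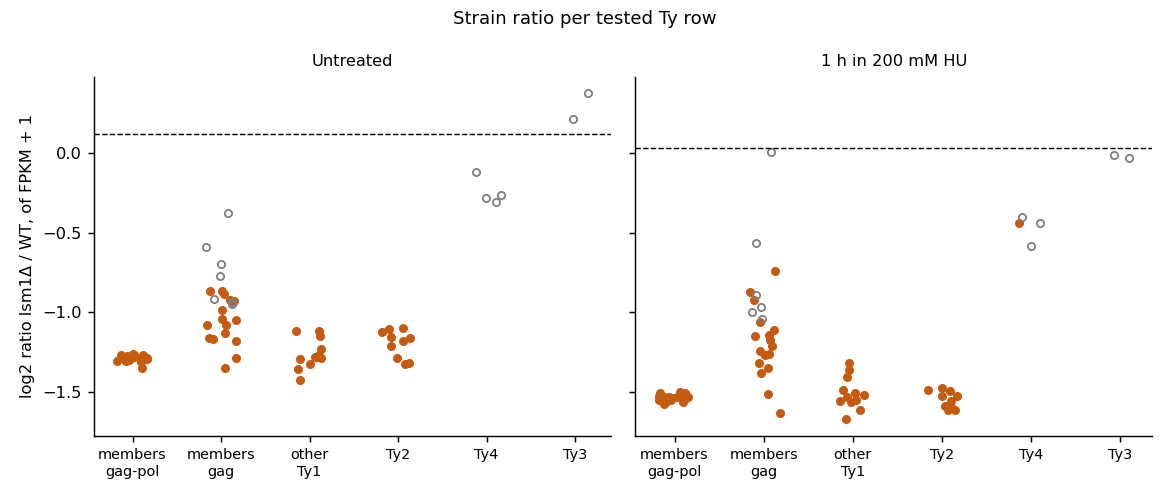
Log2 ratio of lsm1∆ to WT for each tested Ty row, untreated and at 1 h in HU, by set (gag-pol and gag rows with a failed estimate, called members on the axis, and other Ty1, Ty2, Ty4 and Ty3 rows). Filled orange points were called by limma and the dashed line is the median of all rows, and the gag-pol rows lie together between -1.35 and -1.26 untreated while the tested Ty3 and Ty4 rows lie between -0.30 and 0.38.

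Ty rows that never failed allow the comparison with WT to be carried to 4 h. Of 45 such rows 30 passed the filter. The 10 Ty2 gag rows and 3 of the 8 other Ty1 gag rows were under 0.1 FPKM in every library and were not tested. The 15 other Ty1 rows summed to 2742 and 2688 FPKM in untreated WT and 1126 and 1086 in *lsm1∆*, or 40.7%, close to the 41.6% of the 46. At 4 h they summed to 13209 and 11802 in WT and 3492 and 2817 in *lsm1∆*, or 25.2%. These rows share most of their sequence with the copies that failed in WT at 4 h, and what that does to their values was not tested. All 12 tested were called lower in *lsm1∆* at each time, beside 6.86%, 14.3%, 8.30% and 6.35% of all rows untreated and at 1, 2 and 4 h.

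YAR010C (chrI:164544-165866), a Ty1 gag row without a gag-pol row over it, had 407 and 397 FPKM in untreated WT, 169 and 161 in untreated *lsm1∆*, 1872 and 1671 in WT at 4 h and 475 and 385 in *lsm1∆* at 4 h. In WT at 1 h it changed by 0.77 ± 0.14 and in *lsm1∆* at 4 h by 1.37 ± 0.14 (SE, log2 scale), both called by limma. The 23 gag-pol rows changed by 0.81 to 0.91 and by 1.46 to 1.65 in these comparisons, and the 23 gag rows by a median of 0.26 in the first. Its log2 ratio between strains went from -1.28 ± 0.14 to -2.05 ± 0.14 (SE), and the interaction of strain and 4 h of HU was -0.77 ± 0.20 (SE, adjusted p = 0.0164 by limma). Of the 30 tested rows 20 had a smaller rise in *lsm1∆* at 4 h by this interaction (9 of 12 other Ty1, 10 of 10 Ty2 and 1 of 2 rows with no annotated element), beside 3.55% of all rows called lower. The count was 12 without the second untreated WT library or the first untreated *lsm1∆* library, 10 without the first WT library at 4 h, and 7 without the second *lsm1∆* library at 4 h. This interaction was chosen after the values had been seen, and at 2 h none of the 30 was called by limma, beside 1.34% of all rows.

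Other families are given for comparison. The 10 Ty2 gag-pol rows summed to 743 and 700 FPKM in WT and 320 and 297 in *lsm1∆* untreated, or 42.8%, and rose 2.65 times in WT by 1 h, where the 23 Ty1 gag-pol rows rose 1.80 times. Between 14.6% and 18.2% of a Ty2 gag-pol row's 50-base words also occurred in an element of another family. Ty2 gag rows stayed under 0.1 FPKM, as did 3 of the 8 other Ty1 gag rows. In the 23 Ty1 elements fragments were divided between gag and gag-pol rows. The part of either in these values was not tested. YFL002W-A (chrVI:138204-143517), a Ty2 gag-pol row, had 82.9 and 78.2 against 32.9 and 30.3, a log2 ratio of -1.32 ± 0.12 (SE, adjusted p = 0.000133 by limma). The 5 Ty4 rows summed to 18.7 and 20.2 against 16.1 and 15.2, and none of 4 tested was called untreated, 1 was called lower at 1 h, 1 at 2 h and none at 4 h. At 1 h all 4 had an unadjusted p under 0.05, with a median log2 ratio of -0.44. With HU in WT all 4 were called higher at 2 h and at 4 h, beside 31.3% and 22.0% of all rows. Between untreated strains the Ty4 row YHL009W-B had a log2 ratio of -0.30 (adjusted p = 0.146 by limma), and the Ty3 row YGR109W-B had 0.22 (adjusted p = 0.224). Of 2 tested Ty3 rows none was called untreated or at 1 h, 1 was called lower at 2 h and 1 higher at 4 h, beside 49.7% of all rows called higher at 4 h. No test of the difference between families was made.

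Of 26 host genes known to act on Ty1, on a list chosen from background knowledge, 5 were called higher and 6 lower in untreated *lsm1∆*, beside 22.1% and 6.86% of all rows, and 6 and 7 at 1 h, beside 23.1% and 14.3%. The counts called higher are near the share of all rows, and nothing about these genes is read from them. The counts called lower are above the share of all rows, and no test of the list as a set was made. Centred on the library medians the untreated counts were 4 and 8 and those at 1 h 7 and 5. Among 12 transcription activators 1 was higher and 2 lower untreated. *SNF2*, the ATPase of the SWI/SNF remodeller, was lower by a log2 ratio of -0.57 (adjusted p = 0.00363 by limma). *STE12* (-0.05) and *TEC1* (0.04, and -0.04 under centring), which encode factors whose motifs were searched above, were not called. *GCN4*, which encodes the other such factor, had 844 and 932 FPKM in untreated WT and 995 and 1027 in untreated *lsm1∆*. Its log2 ratio under centring was 0.11 (adjusted p = 0.324 by limma), where that of *STE12* was -0.14.

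Of 6 RNA and particle cofactors, 1 was called higher and 2 lower, both untreated and at 1 h. Among them *XRN1*, the cytoplasmic 5′ to 3′ exonuclease that Ty1 transposition depends on, had 143 and 141 FPKM in WT and 71.2 and 78.6 in *lsm1∆*. Its log2 ratio was -0.92 ± 0.06 (SE, adjusted p = 5.57e-05 by limma), and at 1 h it was -1.01 (adjusted p = 1.31e-05). *DCP2*, the decapping enzyme, stood at -0.36 (adjusted p = 0.000576) and -0.57 (adjusted p = 3.85e-05). *PAT1* went the other way, with 85.5 and 80.2 FPKM in untreated WT and 97.6 and 102.4 in untreated *lsm1∆*. Its log2 ratio under centring was 0.19 untreated (adjusted p = 0.0276 by limma). *RAD6*, a ubiquitin-conjugating enzyme, was higher by a log2 ratio of 0.42 (adjusted p = 0.00491) and *RTT109*, a histone acetyltransferase, by 0.54 (adjusted p = 0.00122), while *MMS1*, of the Rtt101 ubiquitin ligase, stood at -0.32 (adjusted p = 0.0062). The part of these genes in the level of Ty1 RNA was not tested.

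**Figure D5:**
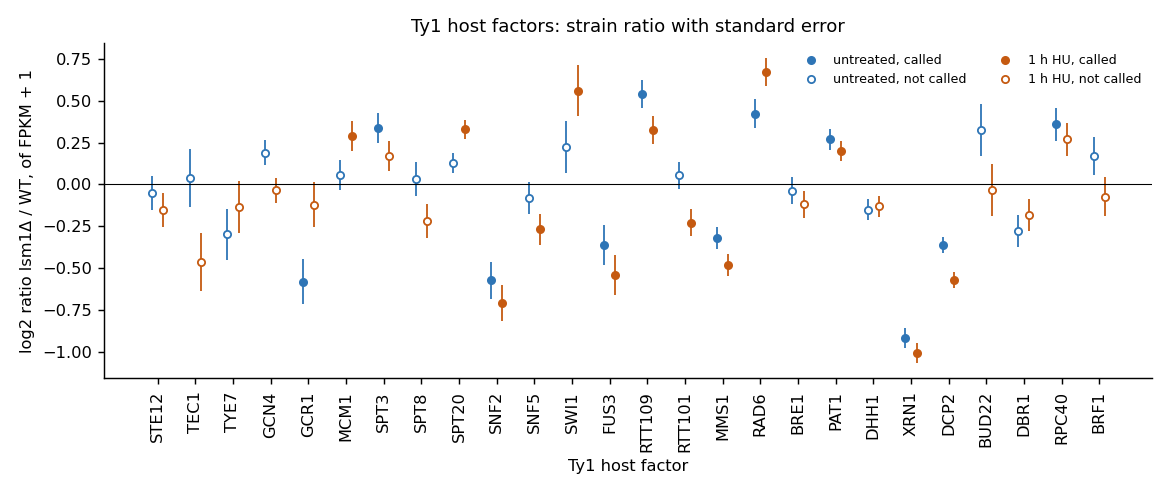
Log2 ratio of lsm1∆ to WT (points) with its standard error (bars) for 26 host genes that act on Ty1, untreated and at 1 h in HU, grouped by role. XRN1 is the lowest at -0.92 untreated, and RTT109 at 0.54 and RAD6 at 0.42 lie above zero.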

How the data were processed

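RNA-seq libraries (2 per condition, 8 conditions) were analysed from the FPKM tables deposited by the authors, 1 per library. Per the labels and the study's methods, reads were aligned to sacCer3 with TopHat2 and FPKM were estimated with Cufflinks, with Cuffdiff used for testing (versions not given in the sources used here). Failed estimates were set to missing. Rows that reached 1 FPKM in 2 or more libraries (7023) were fitted on log2(FPKM + 1) with limma 3.58.1 (R 4.3.3), in a single fit of 16 libraries with trend, and called at a Benjamini-Hochberg adjusted p under 0.05. Fold changes on this scale understate low rows. The script was tested on simulated data. Sums over copies, sequence words and figures were made with Python 3.11.15, pandas 2.3.3, numpy 2.4.6 and matplotlib 3.10.9. Sequences and annotation are from RefSeq (R64). The rows and the gene lists were chosen with earlier results of these data known. Named rows were the 2 highest gag and gag-pol members, the 3 highest and 3 lowest ratios untreated, the 2 highest of each other family, 6 host genes by adjusted p (*XRN1*, also named outright, among them), *LSM1* and HUG1. The host genes *STE12*, *TEC1*, *GCN4* and *PAT1* were named outside this rule. Alternatives were library centring, pseudocount 0.1, no filter, a mean of 5 FPKM, a threshold of 0.01, fits of the compared libraries alone, a replicate block, failed values at 0 and each library left out. Interactions at 2 h and 4 h, and the alternatives for other Ty rows and named genes, were added after the data were seen. The FPKM tables hold no read counts, so depth is unknown.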

Additional observations from a re-analysis of the deposited data

Results flagged for a closer look

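Among Ty rows with no failed estimate, 20 of 30 tested rows rose less in *lsm1∆* than in WT after 4 h in HU, by the interaction of strain and HU in the limma fit (adjusted p under 0.05). Of the rows named by rule, the interaction was -0.77 on the log2 scale for the Ty1 gag row YAR010C and -0.76 for the Ty1 gag row YLR256W-A. It was -0.59 for each of the Ty2 gag-pol rows YFL002W-A and YGR161W-B, and -0.53 for YLR035C-A, which lies in no annotated element. All rows together had a median interaction of 0.27. At the same time point all 46 rows failed in 1 WT library and 42 in the other. Whether fragments of those copies entered the values of the other rows was not tested.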

How the results depend on the processing

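With failed estimates kept at 0, 22, 25, 14, 14, 17 and 19 of the 46 rows were called, in place of 39 and 40 (strains untreated and at 1 h), 24 (WT at 1 h) and 23, 28 and 31 (*lsm1∆* at 1, 2 and 4 h). Divided by the library medians, the log2 ratio of the sums over copies was -1.35 untreated in place of -1.27, 0.54 for WT at 1 h in place of 0.79, and 0.39, 0.79 and 1.10 for *lsm1∆* at 1, 2 and 4 h in place of 0.55, 1.07 and 1.42. With each library left out in turn, the counts for the 46 rows were 29 to 35, 35 to 39, 23 to 23, 6 to 23, 23 to 28 and 25 to 32, and 0 to 0 for the interaction at 1 h. For the other Ty rows, counts called lower were 24 to 24, 24 to 28, 24 to 25 and 24 to 24 at 0, 1, 2 and 4 h, and 7 to 24 for the interaction at 4 h. Counts called higher were 25 to 28 and 27 to 28 in WT at 2 and 4 h, and 24 to 25 and 26 to 27 in *lsm1∆*. The sums ranged from -1.30 to -1.23, -1.60 to -1.41 and -1.58 to -1.30 between strains at 0, 1 and 2 h, from 0.69 to 0.88 and 1.10 to 1.39 in WT at 1 and 2 h, and from 0.46 to 0.63, 0.94 to 1.19 and 1.26 to 1.57 in *lsm1∆*. No called result given here changed direction under the alternatives run for it. The ratio of *TEC1* untreated, which was not called, was -0.04 under centring in place of 0.04. Libraries with the same number did not deviate together (correlations of -0.21 to 0.23 over 28 pairs of groups), and with a replicate block 39, 40, 23, 23, 25 and 31 of the 46 rows were called, and 0 for the interaction. The missing read counts limit what can be said of low gag rows, and shared sequence limits any value for a single copy.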
